A study of Caenorhabditis elegans with 2 samples.

Results

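The CDC-48 segregase is described here through 5 of 19973 nuclear protein-coding genes of Caenorhabditis elegans, namely cdc-48.1, cdc-48.2, ufd-1, npl-4.1 and npl-4.2. The genes were taken by name, and the set was chosen by peak signal in this same precipitation, in which cdc-48.1 was known to be strong and its paralog cdc-48.2 was not. Their peaks are therefore given as a description, with no test. CDC-48, called p97 or VCP in mammals, is a ring-shaped AAA ATPase that uses ATP to pull ubiquitin-tagged proteins out of complexes, membranes and chromatin, often on their way to the proteasome. UFD-1 and NPL-4 form the adaptor that brings ubiquitin chains to the ring. In the worm both cdc-48 paralogs encode the ATPase, and animals survive the loss of either but not of both.

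The data are chromatin immunoprecipitations with an anti-GFP antibody from whole hermaphrodite L4 larvae of strain OP470, whose genotype is given as unc-119(tm4063) III with the integrated transgene wgIs470. The transgene expresses DUXL-1, a homeodomain protein, with GFP and FLAG at its C-terminal end. Both libraries are biological replicates of this 1 group, so no condition, age or genotype was compared, the animals' age is unknown, and the cells in which tagged DUXL-1 was present cannot be told from whole animals. The control used by the authors is not analysed here, and enrichment at a place is therefore not shown to come from DUXL-1. Depth is unknown, as the lists give no read counts.

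Positions are in bp from a transcript start, negative upstream. A promoter peak is a peak with its summit between -1000 and 200. Signal is the enrichment that the authors' peak caller gave each region. It ranks regions within a list and is not scaled between lists. The thresholded list holds the 1980 strongest of 30000 regions called on the pooled replicates, with signals down to 65.0. The pooled candidates go down to 16.0, those of replicate 1 to 8.52 and those of replicate 2 to 7.77, and the weak ones include background regions.

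The strongest peak on chromosome II stood just upstream of cdc-48.1, and no other member had a thresholded promoter peak. The peak covered chrII:10563467-10563679 in build ce11, 213 bp, with its summit at -168 from the start of the gene (WBGene00007352, minus strand, chrII:10560036-10563407). No annotated gene lay at the summit. Its sequence is printed because it carries the strongest value of the set, next to the stretch at the same distance from the cdc-48.2 start (WBGene00008053, plus strand, chrII:8138496-8141230), where no candidate was found. Both are read toward the gene, 5′ to 3′, from the RefSeq WBcel235 sequence of ce11. Capitals mark matches to the 10 words searched, which are listed further on.
cdc-48.1, -272 to -60: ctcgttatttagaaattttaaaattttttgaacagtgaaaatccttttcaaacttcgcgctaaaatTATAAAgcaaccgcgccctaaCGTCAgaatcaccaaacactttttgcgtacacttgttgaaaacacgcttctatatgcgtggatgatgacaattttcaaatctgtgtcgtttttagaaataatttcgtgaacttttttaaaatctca
cdc-48.2, -218 to -118 (chrII:8138278-8138378): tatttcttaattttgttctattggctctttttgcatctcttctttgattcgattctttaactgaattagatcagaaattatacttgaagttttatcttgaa

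The cdc-48.1 peak was found in both replicates, at the same rank and with summits close to each other. Its signal was 304 in replicate 1, 342 in replicate 2 and 638 in the pooled list. These signals ranked 41 of 30000 in replicate 1, 41 of 30000 in replicate 2 and 37 of 30000 in the pooled list. Mitochondrial regions count in these ranks, and among the 1965 nuclear thresholded peaks the cdc-48.1 peak was number 25. The -log10 q of the pooled peak was 2.43, a ceiling that 3904 of the 30000 pooled candidates reached, all 1980 thresholded peaks among them, so it does not set the peak apart. The replicate summits lay at -175 and -151, and the replicate regions were 207 and 197 bp wide, both wholly inside the pooled peak. The 24 bp between the replicate summits compares with a median of 28 bp over the 1031 thresholded promoter peaks that had a candidate in each replicate. The ratio of replicate 1 to replicate 2 was 0.887, inside the middle range of those peaks (median 1.12, quartiles 0.801 and 1.59).

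Among the thresholded promoter peaks that of cdc-48.1 ranked high, and its width was below the most common one. It was number 11 of 1068 promoter peaks, number 8 of 1560 autosomal peaks and number 1 of 326 peaks on chromosome II. Its signal was 6.6 times the median of promoter peaks (96.7) and 9.81 times the lowest thresholded signal. The width of 213 bp was below the 280 bp that 71.4% of promoter peaks had, and 26.3% of promoter peaks were narrower still. The 4 peaks most like it by rank, named further on, were also narrower than 280 bp, so the width is not particular to cdc-48.1. Its place upstream of the start was ordinary, since the summit lay upstream of the nearest start in 90.6% of promoter peaks, at a median position of -205 (quartiles -403 and -88). No other protein-coding start lay within 1000 bp of the summit on either side. By the promoter window, a different measure, the peak belonged to cdc-48.1 alone, and 71.9% of promoter peaks belonged to 1 gene. The nearest other protein-coding gene, C06A1.6, lies on the same strand and ends 537 bp from the summit. The nearest small RNA genes were C06A1.9, a snoRNA gene inside cdc-48.1 and 511 bp from the summit, and the snoRNA gene C06A1.8 at 2641 bp.

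**Figure D1:**
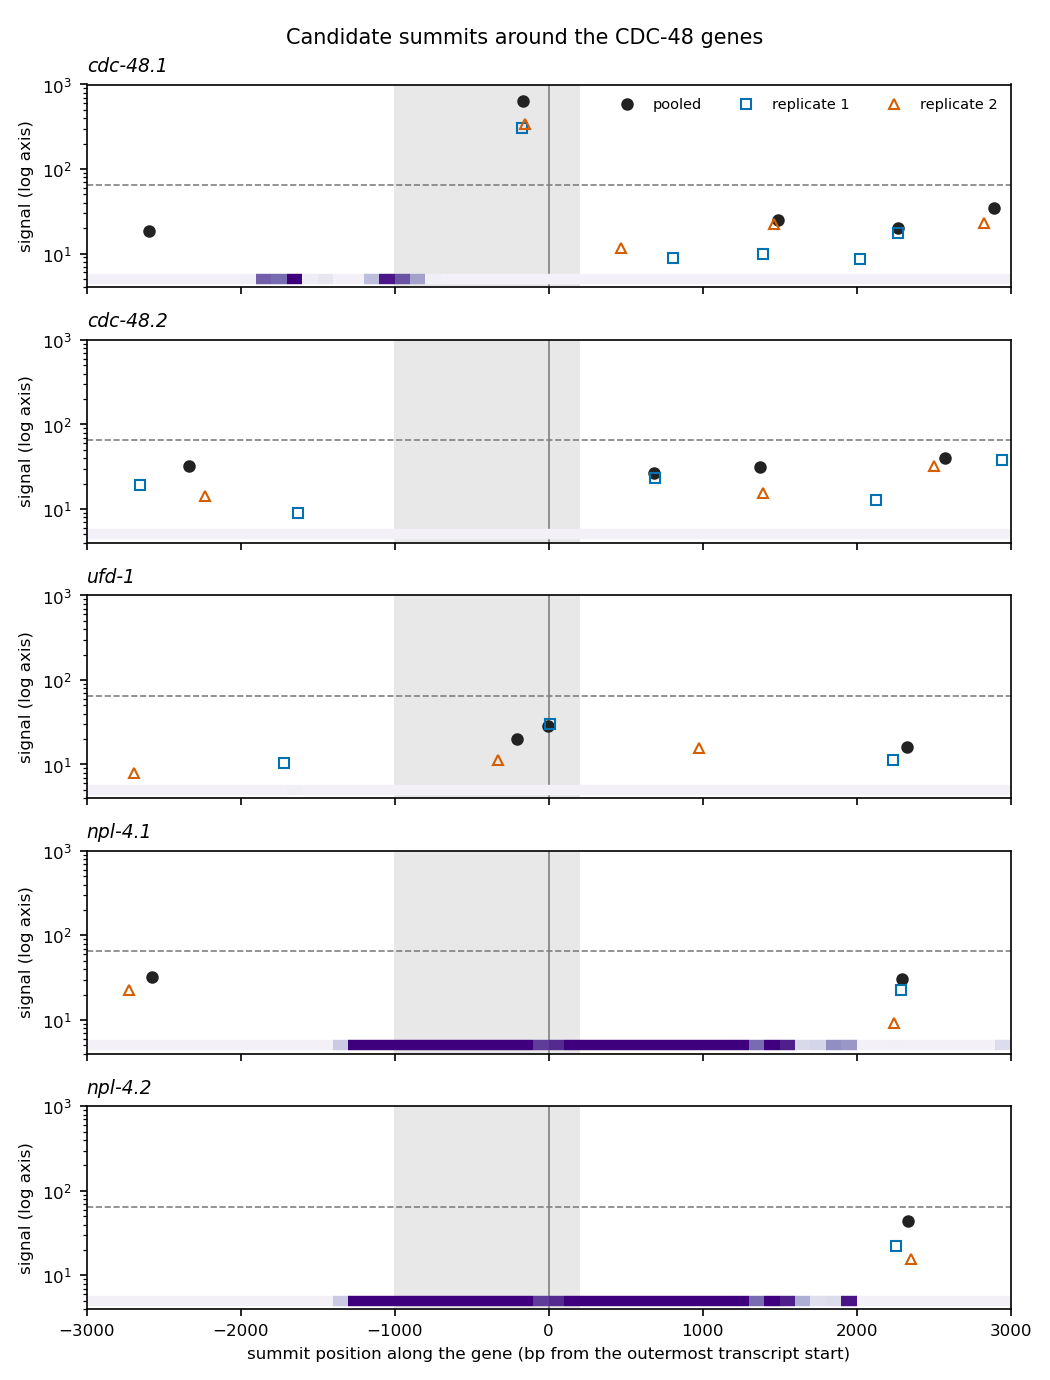
Each panel shows 1 gene, with the summit position in bp from its outermost transcript start on the horizontal axis (negative upstream) and signal on a log axis. Filled circles are pooled candidates, squares replicate 1 and triangles replicate 2, the grey band is the promoter window and the dashed line is the lowest thresholded signal, which applies to pooled candidates only. The strip at the bottom is darker where fewer words of 36 bases occur once in the genome. The cdc-48.1 points at 304 to 638 stand alone, and the bands of cdc-48.2, npl-4.1 and npl-4.2 hold no point.

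The paralog cdc-48.2, which encodes the other copy of the ATPase, had no promoter candidate in the pooled list, in replicate 1 or in replicate 2. Among all genes, 39.1% had a pooled promoter candidate, 39.9% one in replicate 1 and 39.2% one in replicate 2, so an empty window was the more common state. Just outside the window, the nearest pooled candidate had its summit 687 bp downstream of the start, in a coding exon of cdc-48.2, with a signal of 26.5 and rank 14070. Replicate 1 had a candidate at 690 bp with a signal of 23.6 and rank 5309. The nearest candidate of replicate 2 lay farther, at 1390 bp, with a signal of 15.6 and rank 11012. In the pooled list the -log10 q was 0.78, and in replicate 2 it was 2.1. In replicate 1 it was 2.44, the ceiling of that list, which 5408 of its 30000 candidates reached. These nearest candidates thus lay in the body of the gene rather than before it, and none was among the 1980 strongest of its list. The strongest pooled candidate inside the gene lay near its far end, at 2573 bp, with a signal of 40.0.

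A ratio of the promoter candidates of the paralogs could not be formed in any list, because cdc-48.2 has no value. The cdc-48.1 signal was 39.8 times the weakest pooled candidate, 35.6 times the weakest of replicate 1 and 44.1 times the weakest of replicate 2. With the strongest candidate within 1000 bp on either side of the start, a range picked after seeing the values, the ratio of cdc-48.1 to cdc-48.2 was 24.1 in the pooled list and 12.9 in replicate 1. Replicate 2 had no cdc-48.2 candidate in that range. The pooled ratio rests on the cdc-48.2 candidate at 687 bp, whose -log10 q was 0.78. The paralogs differ in sequence: their coding sequences were 75.4% identical and shared no word of 36 bases. Every such word in the cdc-48.2 promoter window and in the cdc-48.1 peak occurred once in the genome.

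Around the paralogs the picture was less uneven than at their starts. Within 5000 bp of the start, cdc-48.1 had 7 pooled candidates and cdc-48.2 had 8, against a median of 3 over all genes. Thresholded peaks in that range numbered 3 at cdc-48.1, 1 at cdc-48.2, 1 at npl-4.2, and none at ufd-1 or npl-4.1, while 80.7% of all genes had none. Besides the promoter peak, those of cdc-48.1 lay beyond its far end, 3550 bp from the start with a signal of 111 (39.4 and 69.2 in replicates 1 and 2), and at 4348 bp with 88.7 (53.3 and 38.9). The peak near cdc-48.2 lay 3057 bp downstream, in a coding exon of the next gene ints-11, with a signal of 75.3 (37.5 and 22.6). The peak near npl-4.2, at -3489 with a signal of 95.5 (32.0 and 66.9), was a promoter peak of dhs-6.

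The adaptor gene ufd-1 had weak candidates at its start that did not recur at the same place in both replicates. The gene (WBGene00006733, minus strand, chrIV:12329408-12330890) has annotated starts at 12330890 and 12330775, and distances here are from the first. The pooled list held a candidate at -5 with a signal of 28.2 and rank 12366, and another at -208 with 19.8 and rank 23150. Replicate 1 had a candidate at 8, in the 5 prime UTR, with a signal of 30.2. Its rank of 3009 lies past the 1980 strongest. Replicate 2 had none at the start, and its candidate at -328 had a signal of 11.3 and rank 19020, with the summit in the 3 prime UTR of the upstream gene F19B6.1. The -log10 q of the stronger pooled candidate was 0.907, against 2.43 at cdc-48.1. In replicate 1 the candidate at the start had 2.44, the ceiling of that list, which cdc-48.1 and 5408 of the 30000 candidates in all reached. The stretch between F19B6.1 and ufd-1 is shown because the stronger pooled summit falls in it (chrIV:12330891-12330975, minus strand). Its capitals mark the word TTTCAG.
ufd-1, -85 to -1: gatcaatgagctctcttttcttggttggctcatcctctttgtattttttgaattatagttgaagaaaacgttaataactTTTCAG

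**Figure D2:**
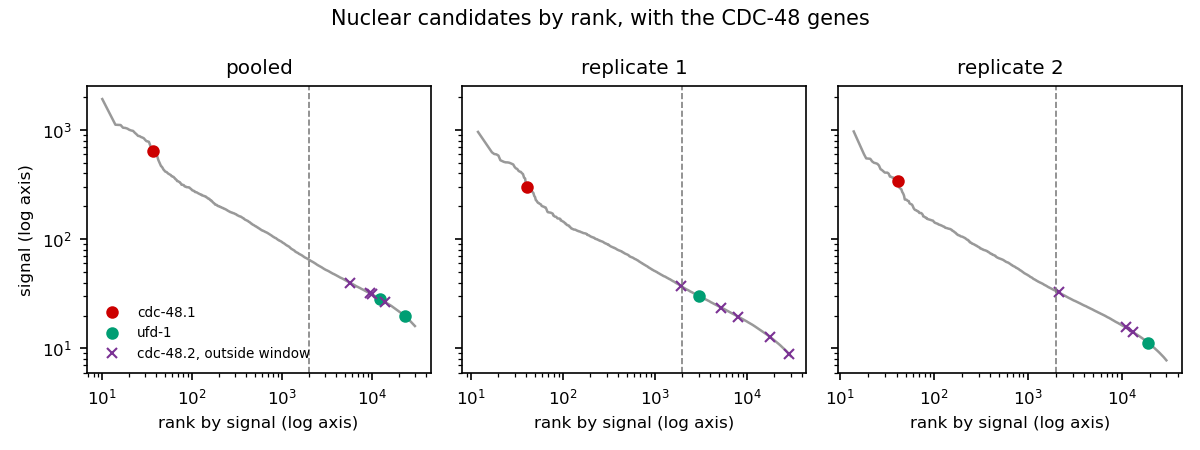
Signal against rank by signal, both on log axes, for the nuclear candidates of the pooled list and of each replicate (grey line). The red point is the cdc-48.1 promoter candidate, green points those of ufd-1, and purple crosses mark cdc-48.2 candidates within 3000 bp of the start that lie outside the promoter window. The dashed line stands at rank 1980. Ranks count all 30000 regions of a list, with the mitochondrial ones, which are not drawn. The cdc-48.1 point is at rank 37, 41 and 41, while the ufd-1 points are at ranks from 3009 to 23150.

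The genes npl-4.1 and npl-4.2, which encode NPL-4, had no promoter candidate in any list, and their promoters are copies of each other. The genes (WBGene00019120, chrII:5631351-5633284, and WBGene00019121, chrII:5622889-5624959, both plus strand) start 8462 bp apart. From 1300 bp upstream to 1599 bp downstream of their starts, 2898 of 2900 bases were identical. Their coding sequences were 99.5% identical. The stretch below is shown because the same 101 bases stand before both genes, at the distance of the cdc-48.1 summit. Its capitals mark the word CGTCA.
npl-4.1, -218 to -118 (chrII:5631133-5631233): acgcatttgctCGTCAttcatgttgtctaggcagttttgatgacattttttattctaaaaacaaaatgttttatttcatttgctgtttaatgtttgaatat
npl-4.2, -218 to -118 (chrII:5622671-5622771): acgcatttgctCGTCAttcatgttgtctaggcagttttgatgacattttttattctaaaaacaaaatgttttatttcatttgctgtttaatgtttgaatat

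A read from such a copy cannot be assigned to either gene by its sequence, and promoters of this kind were nearly empty in these lists. Only 3.09% of the 36-base words in the promoter window of npl-4.1 or of npl-4.2 occurred once in the genome, against 90.7% for cdc-48.1, 100% for cdc-48.2 and 100% for ufd-1. The read length is not given in the sources used here. With words of 100 bases the npl-4 windows were at 9.07%. Of the 253 genes whose window was under 10% unique in 36-base words, 0 had a thresholded peak, 1 had a pooled candidate, 1 a candidate of replicate 1 and 0 one of replicate 2. Of the 13367 genes whose window was wholly unique, 43.2% had a pooled candidate. Whether the npl-4 promoters were free of enrichment or out of reach of the mapping cannot be told apart. At cdc-48.2 every word of 36, 50 or 100 bases in the window occurred once in the genome. How the authors' mapping treated that window was not tested.

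**Figure D3:**
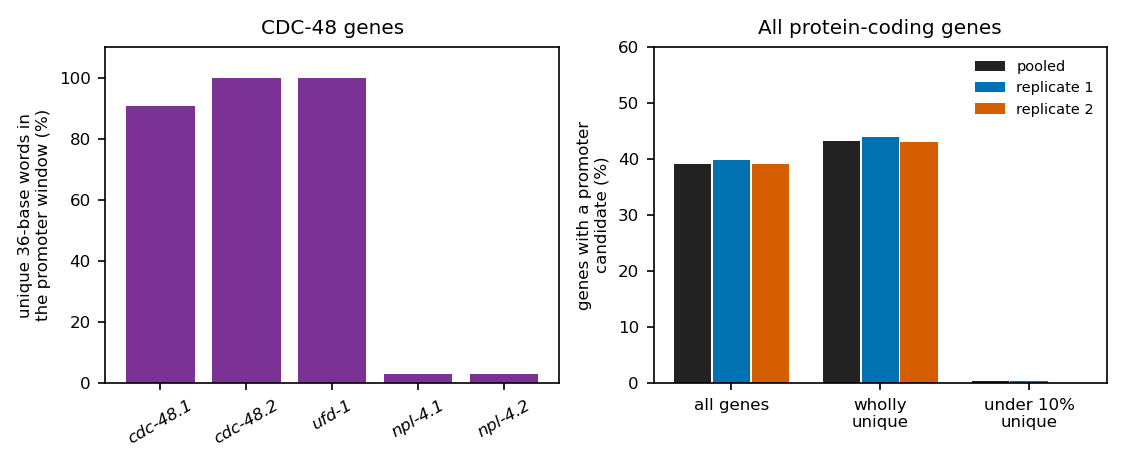
Left, the share of 36-base words in the promoter window that occur once in the genome, in percent, for each CDC-48 gene. Right, the percentage of genes with a promoter candidate in the pooled list and in each replicate, over all 19973 genes, the 13367 with a wholly unique window and the 253 under 10% unique. The npl-4 bars stand at 3.09% and the right-hand group at 0.395% or 0.

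The nearest candidates of the npl-4 genes lay outside the copied stretch. For npl-4.1 the summits lay 2292 bp downstream in the pooled list (signal 30.3), 2289 bp in replicate 1 (22.8) and 2240 bp in replicate 2 (9.27). For npl-4.2 they lay at 2332 bp (44.7), 2258 bp (22.2) and 2352 bp (15.7). All were beyond the 3 prime end of the gene, in sequence with no annotated gene, and none was a thresholded peak.

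In all, 1 of 5 member genes had a thresholded promoter peak, where 6.71% of all protein-coding genes did. With each replicate's own 1980 strongest candidates, cdc-48.1 was again the only member, against 6.28% of all genes in replicate 1 and 6.01% in replicate 2. Pooled promoter candidates were found at 2 of 5, beside 39.1% of all genes. As the set was chosen with the cdc-48.1 peak known, nothing is read from these shares.

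Further genes of the pathway were taken from lists chosen by symbol, and none had a promoter peak near the height of cdc-48.1. Among 11 further CDC-48 cofactors, 3 had a thresholded promoter peak (27.3%, beside 6.71% of all genes), with signals from 67.1 to 81.2, and none of these was among the 1980 strongest candidates of both replicates. UBXN-3, a UBX-domain adaptor that acts with CDC-48 at replicating chromatin, had a peak at -773 from its nearest start with a signal of 81.2 (49.9 and 28.3 in replicates 1 and 2). The adaptor gene ubxn-2 had 76.0 (27.5 and 36.02), and ufd-3, which encodes a ubiquitin-binding cofactor, had 67.1 (28.1 and 35.9). The lowest thresholded signal was 65.0, and in the order named these peaks ranked 1284, 1438 and 1854 of the 1980 thresholded peaks. In the 1980 strongest candidates of replicate 1 alone the list counted 1 gene, beside 6.28% of all genes. In those of replicate 2 alone it counted 3, beside 6.01%. These counts use each replicate's own summits and need not rest on the named peaks. In replicate 2 the peaks of ubxn-2 and ufd-3 were among the 1980 strongest, and that of ubxn-3 was not. The other genes with a pooled candidate were ubxn-1, ubxn-4 and chn-1, with signals from 16.7 to 22.2, and ubxn-5, ubxn-6, ufd-2, atx-3 and png-1 had none.

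In the list of 11 genes for ER-associated degradation and ubiquitin supply, a process in which CDC-48 pulls misfolded proteins from the ER membrane, 4 had a thresholded promoter peak (36.4%, beside 6.71% of all genes). The strongest was at ubq-1, a polyubiquitin gene, with 117 (41.6 and 51.9 in replicates 1 and 2). It was followed by ubq-2, which encodes ubiquitin fused to a ribosomal protein, with 105 (65.7 and 33.5), on a peak that also lies in the promoter of frg-1. The ubiquitin-conjugating enzyme gene ubc-7 had 76.8 (45.3 and 16.4) and the ubiquitin-activating enzyme gene uba-1 had 66.6 (51.2 and 34.8). Of these, ubq-1 and uba-1 were among the 1980 strongest candidates of both replicates. The list counted 4 genes with replicate 1 alone, beside 6.28% of all genes, and 2 with replicate 2 alone, beside 6.01%. The derlin gene cup-2 stayed below the threshold at 59.0. Pooled candidates of hrdl-1, sel-1, marc-6, ubc-26 and der-2 were weaker, with signals from 16.6 to 30.3, and sel-11 had none.

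Of 14 other AAA ATPase genes outside the proteasome, 4 had a thresholded promoter peak (28.6%, beside 6.71% of all genes), all of them among the 1980 strongest candidates of both replicates. They were vps-4, which takes apart ESCRT complexes on membranes, with 126 (64.3 and 60.6), and spas-1, a microtubule-severing spastin, with 119 (69.5 and 50.3). The others were atad-3, a mitochondrial membrane ATPase, with 117 (51.1 and 54.4), whose peak also lies in the promoter of nrde-2, and pch-2, a remodeller of meiotic chromosome proteins, with 107 (54.9 and 35.7). The highest of these 4 signals is a fraction of the 638 at cdc-48.1. The remaining genes of this list with a pooled candidate had signals from 19.6 to 57.4, and spg-7 and lex-1 had none. No test was made on the 3 lists, since they were drawn up with results of these data known.

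**Figure D4:**
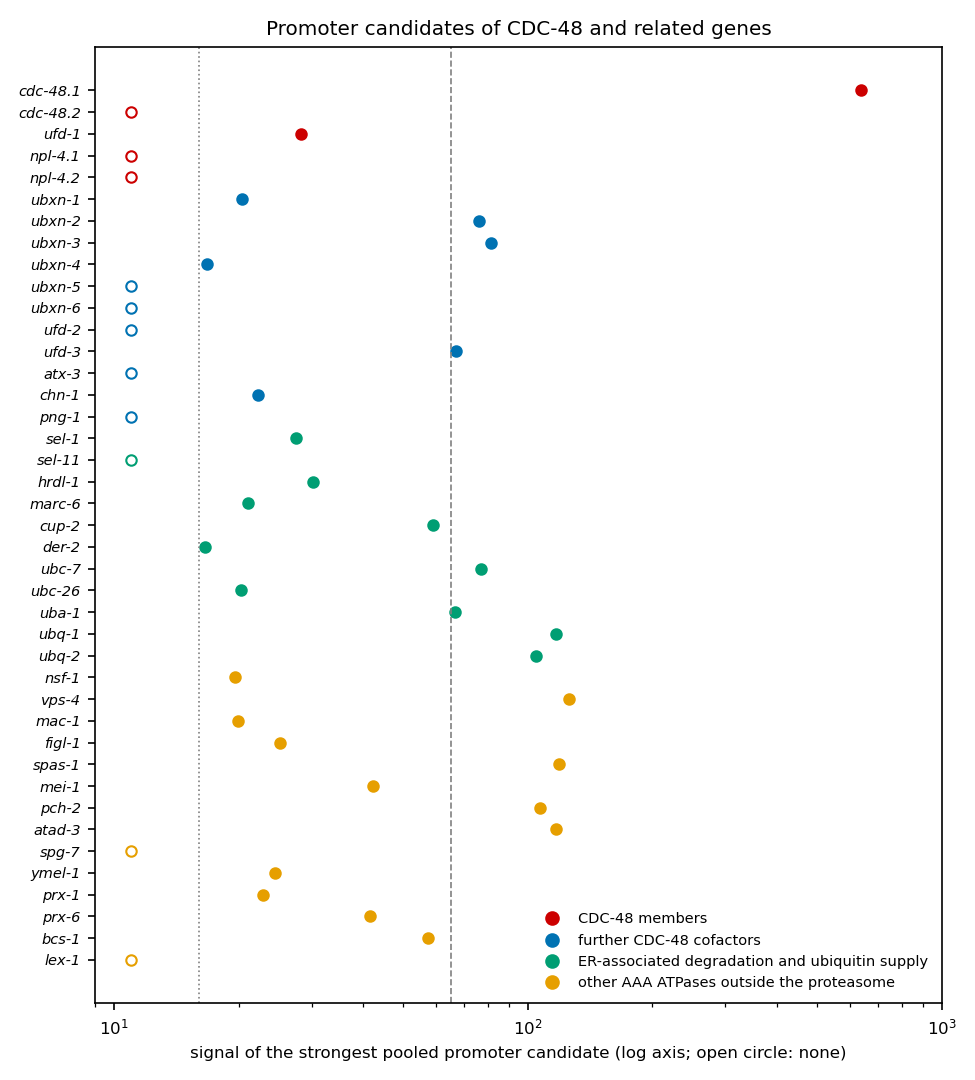
Signal of the strongest pooled promoter candidate on a log axis for each CDC-48 gene and each gene of the 3 further lists, with colours for the lists. Open circles at the left mark genes with no pooled promoter candidate, the dotted line is the lowest pooled signal (16.0) and the dashed line the lowest thresholded signal (65.0). Only cdc-48.1, at 638, lies above 126.

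The 4 peaks most like that of cdc-48.1 are named by rank alone. Likeness was the distance between log10 ranks over 3 lists (pooled, replicate 1 and replicate 2) that rest on 2 libraries. The nearest peak, at a distance of 0.0342, lay upstream of rpl-15 and K11H12.8, with signals of 307 in replicate 1, 347 in replicate 2 and 678 pooled. Next were the peak upstream of tasp-1 and K01G5.10 (0.0505, pooled signal 729), that of the homeobox gene ceh-83 (0.0803, pooled signal 569) and that upstream of rpl-20 and Y17G9B.5 (0.0957, pooled signal 787). Both rpl genes encode proteins of the large ribosomal subunit, and how often thresholded peaks lie at such genes was not counted.

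The sequence under the cdc-48.1 summit was richer in G and C than most sequence at that distance from a start. In the 101 bp around the summit 42.6% of bases were G or C, against a median of 33.7% over 29314 protein-coding starts at the same distance and 47.5% over the summits of 1068 promoter peaks. The matching stretch held 25.7% at cdc-48.2 and 27.7% at each npl-4 gene. The whole 213 bp of the peak held 32.4%, so its G and C lay mainly around the summit.

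Short words were looked for, 10 in all, on either strand of the 101 bp around the summit. CGTCA, present at cdc-48.1, stands at -185 to -181. TATAAA, also present, stands at -206 to -201 and does not overlap it. CGTCA was found at 18.2% of the 1965 nuclear thresholded summits, at 21.0% of promoter summits and in 10.9% of same-distance windows of all starts. TATAAA was found at 4.83%, 4.4% and 12.5%. The other words were absent from the cdc-48.1 window. Of the homeodomain words, TAATTA was present at 1.58% of the 1965 summits, at 1.78% of promoter summits and in 5.41% of same-distance windows. The same shares, in that order, were 1.83%, 1.87% and 3.25% for GGATTA, and 5.55%, 5.06% and 5.94% for TGATTG. The word GAGAGA was present at 21.1% of the 1965 summits and in 8.62% of the windows, and CACGTG at 4.33% and 1.75%. The shares at the 1965 summits and in windows were 7.23% and 11.3% for TGATAA, 7.28% and 16.1% for TTTCAG, and 3.92% and 6.2% for GAANNTTC. These differences were not tested. They were also not adjusted for G and C, which were more frequent at promoter summits than in the windows. A match is a description of letters and not a site of binding.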

How the data were processed

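Anti-GFP chromatin immunoprecipitation followed by sequencing gave 2 libraries of 1 group, and replicate numbers are from the labels. The authors deposited peak lists in ce10 and ce11. For each ce11 region the deposited columns used were signal, an enrichment from the authors' caller, and -log10 q. Per the deposited README files, candidates were derived from the alignments of each replicate or of both, together with a further file that the control-normalized tracks also use, which was taken as the control. The sources used here do not give the aligner, peak caller, IDR threshold or read length. The ce10 lists were not used, as no coordinates were converted.

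Summits were compared with starts of protein-coding transcripts (Ensembl release 115, WBcel235, the ce11 assembly). The thresholded list was checked to be the 1980 pooled candidates of highest signal. Peaks matched between lists when they overlapped by at least 1 bp. Words of 36, 50 and 100 bases were counted on both strands of the genome, and the counting was tested on simulated data. Coding and promoter sequences were aligned globally. Python 3.11.15, numpy 2.4.6, pandas 2.3.3 and Biopython 1.88 were used.

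The members, gene lists, words and windows were chosen with earlier results of these data known, so no test was made. Named genes are the members, list genes with a thresholded promoter peak, genes at the 4 peaks nearest to that of cdc-48.1 in log10 rank, and genes that share a member's peak. Further names were added after their values were seen. Alternatives were other windows, overlaps, a stricter list and each replicate alone.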

Additional observations from a re-analysis of the deposited data

How the results depend on the processing

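The count of 1 member gene with a thresholded promoter peak, cdc-48.1, was the same with windows of 500 bp upstream to 100 bp downstream and 2000 bp upstream to 200 bp downstream, with any base of the peak in the window, in the stronger 990 peaks and with either replicate left out. At ranks 37 pooled and 41 in each replicate, with its summit at -168, the cdc-48.1 peak could not drop out of these alternatives. The window of 500 bp and the stronger 990 peaks could not add another member either, so they test nothing. The window of 2000 bp, any base of the peak and each replicate alone could have added a member, and none did. The replicate regions lay wholly inside the cdc-48.1 peak and covered 97.2% and 92.5% of it. A reciprocal overlap of 50% was therefore met in advance. The further cofactors fell from 3 genes to 2 with the window of 500 bp and to 0 in the stronger 990 peaks. They were 1 without replicate 2, beside 6.28% of all genes, and 3 without replicate 1, beside 6.01%. The list for ER-associated degradation and ubiquitin supply fell from 4 genes to 2 in the stronger 990 peaks and was 2 to 4 with either replicate left out (2 without replicate 1). The stronger list holds fewer peaks by construction. No share of all genes is given for that list or for any base of the peak in the window, so nothing is read from those counts. The cause of the other moves was not tested. The other AAA ATPases were 6 with the window of 2000 bp, 5 without replicate 2, and 4 in every other alternative run. The share of all genes with a thresholded promoter peak was 8.82% with the window of 2000 bp and 5.1% with that of 500 bp. The planned ratio of promoter candidates of the paralogs gave no value when the list, the window or the overlap was changed singly. With both the window of 2000 bp and replicate 1, cdc-48.2 had a candidate at -1629 with a signal of 8.88, near the lowest of that list. The alternatives for the lists beyond the window, the ratio within 1000 bp and the longer words were added after seeing the data. No paired analysis was possible because there is 1 group. Without read counts, depth limits cannot be set, and values near the lowest candidate signal are not told from background.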
